A study of Mus musculus with 10 samples.

Results

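Complement is the protein cascade of blood and tissue fluid that marks microbes, debris and, in the nervous system, synapses for removal. Its classical arm starts when C1q, a hexamer of trimers each built from an A, a B and a C chain, binds its target and activates the proteases C1r and C1s. All arms meet at C3, whose cleavage leaves an opsonin on the surface and frees the anaphylatoxin C3a, and later cleavage of C5 frees C5a. In the brain and spinal cord C1q comes mainly from microglia and macrophages, and the receptors of C3a and C5a are carried above all by myeloid cells.

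The 9 genes described here are C1qa, C1qb, C1qc, C1ra, C3, C3ar1, C5ar1, C5ar2 and Cfp, matched by symbol. All 9 are among the 22064 genes of the immune libraries, and 7 are among the 19333 genes of the table on oligodendrocyte precursor cells (OPCs), where C1ra and C5ar2 are not listed. The series holds 10 mouse libraries. Of these, 6 are OPC cultures purified by immunopanning and kept for 3 days in medium with PDGFAA, 3 from Olig2-Cre:Apc-fl/fl mice, in which Cre is driven by Olig2 and deletes Apc, and 3 from Apc-fl/fl littermates, called wild type here. The other 4 came from spinal cords of Pdgfra-CreER:Apc-fl/fl mice with experimental autoimmune encephalomyelitis (EAE, an induced autoimmune inflammation of the cord) at day 18. Of these, 3 hold sorted CD11b+Gr-1+NK1.1+ cells, which the submitters name cytotoxic macrophages, and 1 holds sorted CD4+ cells labelled Th1. All 4 immune libraries carry the floxed allele and the inducible Cre, so none is a control for the genotype, and no source used here gives the animals' ages or a treatment to induce Cre.

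The macrophage libraries held 23174908 to 23564215 estimated reads and the library labelled Th1 3051730. In the macrophage libraries the 13 fixed neutrophil markers summed to between 434020 and 437110 TPM (a level corrected for transcript length and scaled to the same sum in each library), the 12 macrophage and monocyte markers to between 29080 and 29635, and the 10 microglia markers to between 145 and 152. There S100a8 gave a mean of 310400 TPM of the neutrophil sum, and Lyz2 22679 TPM of the macrophage and monocyte sum. In the library labelled Th1 the neutrophil, macrophage and monocyte, and microglia sums were 25190, 11662 and 310 TPM. Lyz2 gave 11006 TPM of the macrophage and monocyte sum there, and Trem2 274 TPM of the microglia sum. Single markers went both ways. Ms4a7 stood at 394 TPM there against a macrophage mean of 3.997, Adgre1 at 81.6 against 7.63 and Fcgr1 at 167 against 25.2. Trem2 was also higher (macrophage mean 59.6 TPM), as were Cd163, P2ry12, Gpr34 and Fcrls at low levels. All other macrophage, monocyte and microglia markers were lower there, Cd68 at 1.68 against 207 TPM. Of the neutrophil markers Ltf (709 against 315 TPM) and Cxcr2 (89.4 against 48.4 TPM) were higher there, and all others were lower. Of the 8 T cell markers in the files 7 had no read in the library labelled Th1, Cd3e and Cd4 among them. The other was Lck at 66.3 TPM. Of all 22064 genes 6534 had a read there, so most genes had none. No NK, B cell or dendritic marker had one either. The labels are therefore used as names only. The macrophage libraries differed from one another by more than read sampling, with chi-square values of 1.29 to 2.53 per degree of freedom over 11019 to 11058 genes, and they were counted as 3. Nothing in the labels says that they came from separate animals, so an SD over them may be technical. Means and fold changes, but no values per library, are what the authors' deposited table gives for OPCs.

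The C1q chains were the most abundant of the 9 genes in the macrophage libraries. C1qb, the gene of the B chain, stood at 156, 164 and 162 TPM. C1qa, the gene of the A chain, stood at 101, 109 and 107 TPM. C1qc, the gene of the C chain, stood at 90.5, 93.4 and 90.9 TPM. Thus B lay above A and A above C in each of the 3 libraries, and the ranges of the chains did not overlap. As means these were 160.6 ± 4.46, 106 ± 4.27 and 91.6 ± 1.56 TPM (SD, n = 3), which placed C1qb 419th and C1qc 595th of all genes by mean TPM. In bulk RNA a smaller number of C1q-expressing cells cannot be told apart from less C1q RNA per cell. Within a library C1qb exceeded C1qa 1.52 ± 0.0194 times, and C1qc was 0.865 ± 0.0259 times C1qa (SD, n = 3). C1ra, a protease that C1q activates, was near the floor at 0.33, 0.4 and 0.36 TPM. It has a close paralog, C1rb, so its reads may be shared, and C1rb had no read in any macrophage library.

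The genes of the chains lie side by side on chromosome 4 of GRCm38, all on the minus strand. They span 18675 bases, with C1qb at 136880129 to 136886187, C1qc at 136889804 to 136893065 and C1qa at 136895917 to 136898803. The 250 bases before the RefSeq start of C1qb (GRCm38.p6, chr4:136886201-136886450) are shown, since it was the most abundant of the 9 genes in the macrophage libraries. The stretch runs 5′ to 3′ on the minus strand, and capitals mark the letters AGGAAG, on either strand, a core bound by ETS factors such as PU.1, the master regulator of myeloid cells.
C1qb: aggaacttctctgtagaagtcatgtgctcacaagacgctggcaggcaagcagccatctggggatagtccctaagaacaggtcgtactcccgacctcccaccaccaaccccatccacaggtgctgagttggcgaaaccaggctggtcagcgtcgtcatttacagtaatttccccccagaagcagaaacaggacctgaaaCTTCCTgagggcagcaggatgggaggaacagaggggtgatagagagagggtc
The C1qb stretch held the core at 1 place, and 29.5% of 32851 RefSeq promoter stretches of that length held it. A match in letters is a description of the sequence only.

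Beyond C1q, the macrophage libraries held both C3 and Cfp. Cfp, the gene of properdin, which stabilises the alternative-pathway convertase and is made by neutrophils and monocytes, stood at 58.45, 61.34 and 58.4 TPM. C3, the gene of the central component (chromosome 17, 57203970 to 57228136), stood at 17.7, 17.1 and 17.5 TPM. The range of Cfp lay above that of C3 in all libraries, and C3 was 0.294 ± 0.0128 times Cfp (SD, n = 3).

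The anaphylatoxin receptors were far from equal in these libraries. C5ar1, the G protein-coupled receptor through which C5a draws neutrophils, stood at 31.95, 33.19 and 32.78 TPM. C5ar2, the other C5a receptor, which does not couple to G proteins, stood at 1.09, 1.23 and 1.29 TPM. C3ar1, the receptor of C3a, stood at 0.64, 0.51 and 0.71 TPM. C5ar1 thus exceeded C5ar2 27.2 ± 1.96 times and C3ar1 53.7 ± 10.01 times (SD, n = 3), and no 2 of the receptors overlapped. With 3 libraries of one group, these ratios are descriptions without a test. C5ar2 and C5ar1 are neighbours on chromosome 7, at 16234585 to 16244154 and 16246743 to 16259540, with 2588 bases between them. Over the 9 genes the order by mean TPM was C1qb, C1qa, C1qc, Cfp, C5ar1, C3, C5ar2, C3ar1 and C1ra, and the ranges of neighbours in that order were apart in each case.

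**Figure D1:**
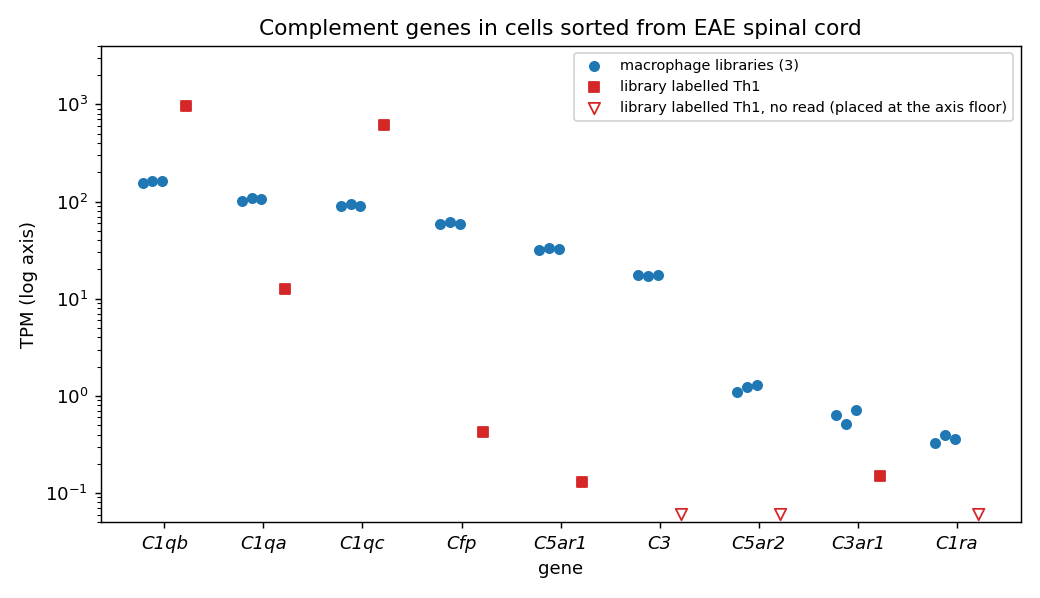
TPM (log axis) of the 9 complement genes in each of the 3 macrophage libraries (circles) and in the library labelled Th1 (squares; open triangles at the axis floor mark genes without a read). The macrophage libraries lie close together for every gene, while C1qb and C1qc are higher in the library labelled Th1 and C1qa, Cfp, C5ar1 and C3 are lower.

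The rest of the system was covered by a list of 47 other complement genes. In the macrophage libraries 11 of them reached a mean of 1 TPM, 17 were lower and 19 had no read. Of all 22064 genes 6613 reached a mean of 1 TPM there, so most genes did not reach it either. The 5 highest were, in order, Itgb2, the beta subunit of complement receptor 3, at 34.7 ± 0.116 TPM, Fcnb, a ficolin that starts the lectin pathway, at 30.1 ± 0.964 TPM, Cr1l, a membrane inhibitor of C3 convertases, at 21.3 ± 0.484 TPM, C1qbp, a mostly mitochondrial protein named for binding C1q, at 18.9 ± 0.146 TPM, and Itgam, the alpha subunit of complement receptor 3, at 12.3 ± 0.343 TPM (SD, n = 3). The classical proteases C1s1 and C1s2 had no read, C2 a mean of 0.0333 TPM and C4b one of 0.827 TPM. Of the alternative pathway, the protease gene Cfb stood at 4.34 ± 0.0929 TPM (SD, n = 3) and the protease gene Cfd had no read. For the terminal complex C7, C8a, C8b and C9 had no read, and Hc, the gene of C5, stood at 0.0267 TPM. These values show C1q, C3, properdin and receptors among the transcripts, with most proteases and terminal components at or near 0.

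The second question was how the library labelled Th1 differed from the macrophage libraries. In it C1qb had 3017 reads and 971 TPM, and C1qc 1872 reads and 614 TPM, above every macrophage library. C1qa had 38 reads and 12.5 TPM, below every macrophage library. C3, C5ar2 and C1ra had no read. The exact 95% upper limit for a count of 0 was 1.21 CPM (reads scaled to a common library total, counting error only). C5ar1 had 1 read, and C3ar1 and Cfp had 2 each. Against read totals, C5ar1 was 448 times higher in the macrophage libraries (95% interval 80.4 to 17710), Cfp 256 times (70.9 to 2115) and C3ar1 7.65 times (2.1 to 63.4), intervals that cover counting error only. C3 was at least 21.4-fold lower in the library labelled Th1, the smallest bound over 3 scalings at a floor of 3 reads in that library, while for C5ar2 and C1ra the smallest bound was under 1, so no fold is given.

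Scaling matters for this pair, because the library labelled Th1 is shallow and unlike the others. By edgeR's quasi-likelihood test with TMM scaling, whose spread comes from the macrophage libraries alone, 2 of the 9 genes were called higher and 5 lower, which took 4-fold or more and an adjusted p below 0.05. Among all 11447 genes tested, 13.7% were called higher and 54.6% lower, so the 5 lower calls are close to the share of all genes. The test compares 1 library with 3 and assumes that the lone library varies like them. The spread among those 3 beyond counting error was small, a coefficient of variation of 0.0224, and may be technical. The SEs and adjusted p that follow may therefore not measure variation between animals. C1qb rose by 3.29 (SE 0.0418, adjusted p = 1.02e-25) and C1qc by 3.49 (SE 0.0485, adjusted p = 5.85e-25) on the log2 scale. C1qa was at -2.38 (SE 0.173, adjusted p = 4.19e-11), C5ar1 at -7.30 (SE 0.385, adjusted p = 1.14e-13) and Cfp at -6.50 (SE 0.338, adjusted p = 8.85e-14) on the same edgeR scale. C3 (adjusted p = 1.76e-14) and C5ar2 (adjusted p = 0.000829) were also called lower by edgeR, with fitted folds that depend on the prior count since they had no read. C3ar1 (-1.44, adjusted p = 0.146) and C1ra (adjusted p = 0.0623) were not called by edgeR.

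The median log2 fold change of all genes tested was -5.61 with TMM, -4.33 with DESeq2 size factors and -6.25 with read totals alone. By the DESeq2 Wald test it was -1.71. Only 6534 of 22064 genes had a read in the library labelled Th1, and the fitted fold of a gene without one depends on the prior count. How a gene stands to the median therefore depends on the setting. Relative to the TMM median, C1qb stood 8.90 higher, C1qc 9.10, C3ar1 4.18 and C1qa 3.23, and Cfp stood at -0.89 and C5ar1 at -1.69. With read totals alone C1qb was at 1.80 and C1qc at 1.995, both just under the 4-fold limit, so neither was called, while C3ar1 (-2.92) and C1ra were called lower, which makes 0 higher and 7 lower calls. With DESeq2 size factors C1qa was at -0.87, past the adjusted p (0.00144 by edgeR) but under 4-fold, and C3ar1 turned to 0.08. C5ar2 was not called by the DESeq2 Wald test (adjusted p = 0.0915). Under all 4 of these settings C1qb and C1qc lay higher and C1qa, Cfp and C5ar1 lower in the library labelled Th1.

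**Figure D2:**
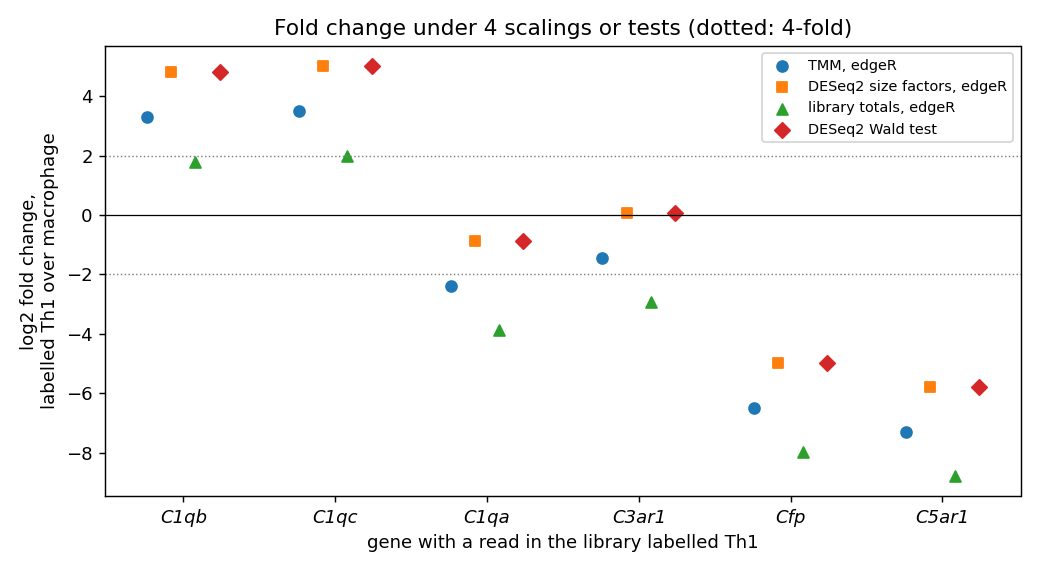
Log2 fold change of the 6 complement genes with a read in the library labelled Th1, as that library over the macrophage libraries, under 4 scalings or tests (symbols), with dotted lines at 4-fold. C1qb and C1qc lie above 0 and C1qa, Cfp and C5ar1 below it under each setting, while C3ar1 changes side.

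Genes of like level in the macrophage libraries scattered widely in the library labelled Th1. Of 1309 genes within 2-fold of the macrophage TPM of C3, 30.8% had no read there, and of 932 such genes for C5ar1, 55.9% had at most 3 reads. Among 488 genes near C1qa the median in the library labelled Th1 was 2.24 TPM and the upper quartile 318 TPM, so C1qa lay above 54.3% of them. C1qb lay above 89.3% of its 375 neighbours and C1qc above 88.1% of its 531. The part of this scatter in the C1q values was not tested. Of the other complement genes 18 were tested by edgeR, with a median log2 fold change of -6.43 against -5.61 for all genes tested. Lower calls were the most common outcome among all genes tested and made up a like share of the 18. They are therefore not particular to complement genes. Among the 18, only C1qbp was called higher, at 1343 TPM (6.84, SE 0.0424 by edgeR). Those called lower were the receptor genes Itgb2 (-5.29), Itgam (-3.42), Itgax and Cd93, the regulators Cr1l (-6.04) and Cd55, the ficolins Fcna and Fcnb, and C4b (-3.18), Cfb and C1rl, with adjusted p by edgeR from 2.51e-14 to 0.0304. Of these Itgax, Cd93, Cd55, Fcna, Fcnb, Cfb and C1rl had no read in the library labelled Th1.

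Genes most like the C1q chains were sought over log2(TPM + 1) in the 4 immune libraries, by the smallest Euclidean distance to the mean of the chains. They were Cope, Bri3, Tmbim6, Rbm3 and Anapc13, at distances of 0.186 to 0.34. That mean is not the profile of any single chain, since it lies between C1qa and the other chains in the library labelled Th1. Nearest to C5ar1 were Hcls1, Phf5a, Cited2, Tnfaip2 and Dnajc8, at distances of 0.0662 to 0.156. With 4 libraries, such likeness rests on the level and on 1 difference.

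Taking the chains as shares of their summed level removes the scaling between libraries. In the macrophage libraries C1qa made up 29.1%, 29.8% and 29.8%, C1qb 44.8%, 44.7% and 45%, and C1qc 26.1%, 25.5% and 25.2% of the summed TPM. In the library labelled Th1 the shares were 0.784% for C1qa, 60.8% for C1qb and 38.4% for C1qc. There C1qb was 77.6 times C1qa (95% interval 56.4 to 109.9, counting error only), against at most 1.54 times in a macrophage library. C1qc was 0.632 times C1qb (0.596 to 0.67), against 0.56 to 0.582 in the macrophage libraries. So the A chain parted from the others in the library labelled Th1, whereas the ratio of C to B there was close to, and just above, that of the macrophage libraries.

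In the OPC cultures C1qa was the highest chain. The authors' deposited table gives a mean of 1722 normalized counts for C1qa, 64.7 for C1qb and 58.1 for C1qc over both genotypes. Divided by the relative lengths behind the TPM of the macrophage libraries, which lie within 3% of that of C1qa, C1qa took 93.3% of the sum, C1qb 3.42% and C1qc 3.24%. C1qa was thus 27.3 times C1qb, and C1qc 0.946 times C1qb, on the means of the authors' deposited table. With the exonic lengths of GENCODE M21, in which C1qc is longer (1931 bases against 1040 for C1qa), these ratios were 27.8 and 0.505, so how C1qc stood to C1qb depends on the length used. The OPC and immune tables were made separately, so only ratios within each table are set side by side, and no spread over libraries can be given for the OPC shares. No gene in GENCODE M21 overlaps any of the 3 chains. In the authors' deposited table the means of the 10 microglia markers ran from 54.1 normalized counts for Siglech to 1662 for Cx3cr1, not corrected for length. They are separate genes, not chains of 1 protein. What lay behind the gap between C1qa and the other chains was not tested.

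**Figure D3:**
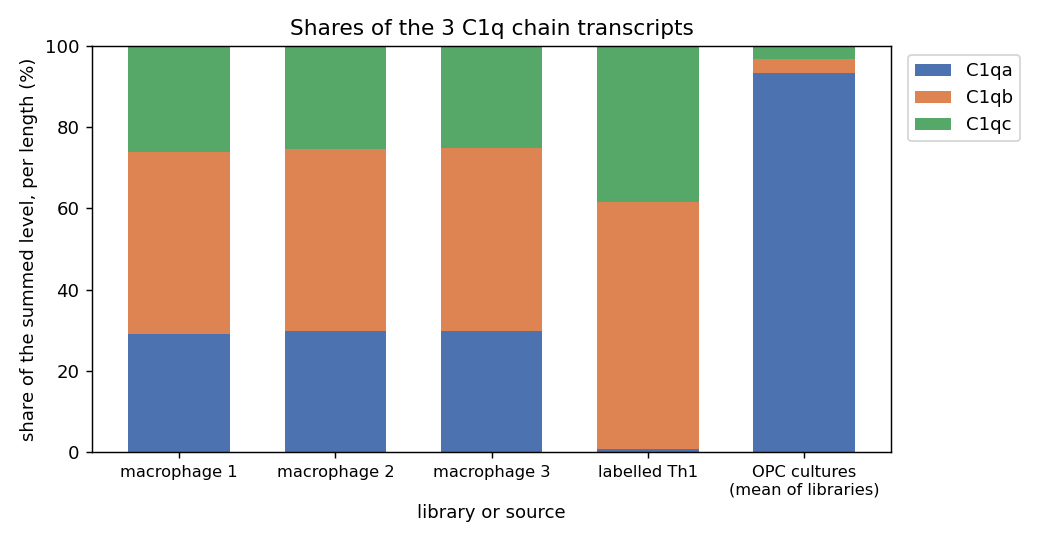
Share of each C1q chain in the summed length-corrected level of the 3 chains, in percent, for each macrophage library, the library labelled Th1 and the OPC cultures (from means over all OPC libraries). C1qa makes up 29.1% to 29.8% in the macrophage libraries, 0.784% in the library labelled Th1 and 93.3% in the OPC cultures.

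The last question was which complement genes differ in OPC cultures without Apc, whose protein helps to break down beta-catenin. The receptors of both anaphylatoxins were higher, and the components were not called. Which genotype is the numerator is not stated, and the deposited values have the Wnt target genes Notum, Sp5, Lef1 and Axin2, which loss of Apc is known to raise, below 0. All deposited signs were therefore turned, so that every log2 fold change given here reads as Apc-deleted over wild type. Of the 7 genes listed in the authors' deposited table, 2 rose at an adjusted p under 0.05 and none fell, against 0.393% of 19333 genes called higher and 0.155% called lower. C3ar1 (chromosome 6, 122847138 to 122856161) rose 4.69-fold in the authors' deposited table (log2 2.23, SE 0.52, adjusted p = 0.0063). Its mean of 73.2 normalized counts and that fold imply 25.7 in wild type and 121 in Apc-deleted cultures, if both genotypes weigh equally in the mean. C5ar1 rose 9.75-fold in the authors' deposited table (log2 3.28, SE 0.84, adjusted p = 0.0213). Its mean there was low, 15.4 normalized counts, which implies 2.87 in wild type and 28 in Apc-deleted cultures. By p-value they ranked 64th and 85th of all genes in the authors' deposited table.

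Both receptor genes also had wide errors. The SE of C3ar1 was 1.97 times, and that of C5ar1 1.64 times, the median SE of the 200 genes nearest in mean level in the authors' deposited table. For C1qa, C1qb, C3 and Cfp that quotient lay between 0.955 and 1.14, and for C1qc it was 1.31. The phagocyte markers described next had wide errors as well, 7.12 times for Lyz2, 1.98 for Cd68, 1.47 for Adgre1 and 1.44 for Ms4a7. Values per library, which would show whether 1 culture carries the increase, were not analysed here.

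Of the C1q chains, C1qa stood at 0.17 (95% interval -0.11 to 0.45), C1qb at 0.27 (-0.34 to 0.89) and C1qc at 0.88 (0.14 to 1.62), as log2 fold changes in the authors' deposited table. C1qc had an unadjusted p of 0.0195 and an adjusted p of 0.979 there, and C1qa and C1qb adjusted p of 1. C3 was at -0.11 (-0.79 to 0.57) and Cfp at -0.04 (-0.76 to 0.67) in the authors' deposited table, neither called. The interval of C3ar1 ran from 1.2 to 3.26 and that of C5ar1 from 1.64 to 4.93, so C5ar1 lay apart from all 5 component genes and C3ar1 from all but C1qc. No test of the difference between genes was run, since they share their libraries. The intervals are 1.96 SE on either side.

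Markers of phagocytes are given beside these receptors, since myeloid cells carry both. In the authors' deposited table, 10 of the listed macrophage and monocyte markers were measured and 2 were called higher, Lyz2 (4.33, SE 0.96) and Cd68 (1.54, SE 0.36), and none lower, with a median of 0.08. By the authors' deposited table, higher values were seen for 8 of these 10, and for 4 the unadjusted p was under 0.05. The other 2 of the 4, Adgre1 (1.87, SE 0.65) and Ms4a7 (1.59, SE 0.60), were not called, nor were Csf1r (0.01, SE 0.16) and Mertk (0.00, SE 0.15). None of the 10 microglia markers was called, with 4 at an unadjusted p under 0.05, a median of 0.05 and values from -0.21 to 0.87. The 4 were Tmem119 (0.87, SE 0.31), Sall1 (0.85, SE 0.26), Trem2 (0.58, SE 0.24) and Fcrls (0.42, SE 0.21). All 4 pointed higher, and 6 of the 10 did so in total. By the authors' deposited table an unadjusted p of 0.0497 ranked 696th of all 19333 genes. None of 11 neutrophil markers was called, with 0 at an unadjusted p under 0.05, by the authors' deposited table. The part of phagocytes in the receptor increases was not tested. In the authors' deposited table the neuronal markers summed to a mean of 204900 normalized counts, of which Tubb3 gave 122250 and Nefl 61468, and the 6 OPC markers summed to 23402, of which Olig1 gave 11343. These sums are not corrected for length and do not give the shares of the cell types.

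**Figure D4:**
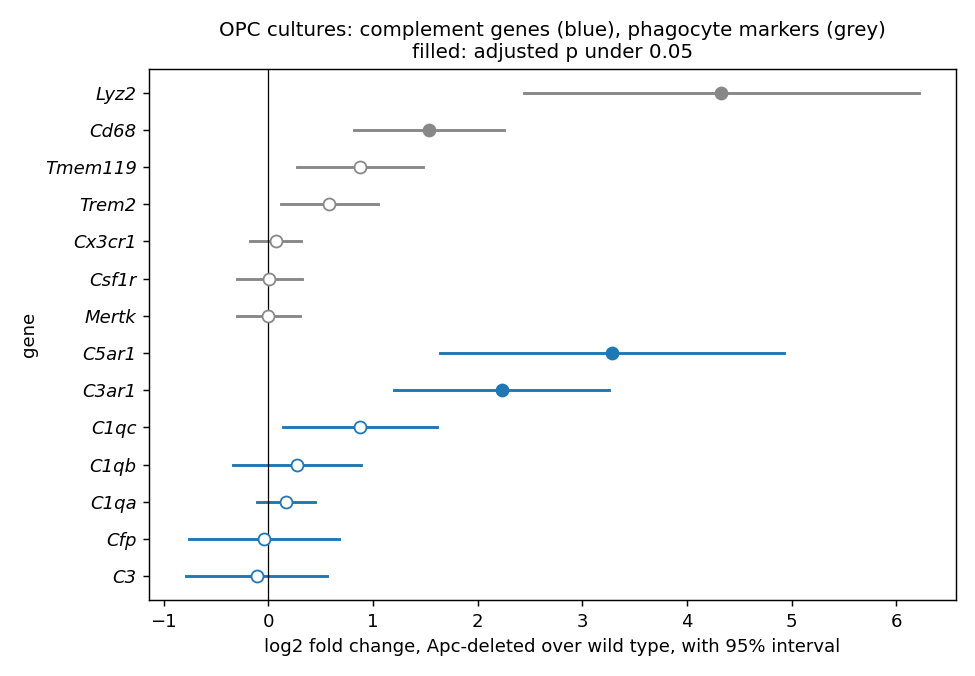
Log2 fold change, Apc-deleted over wild type, with its 95% interval (1.96 SE) from the authors' comparison of OPC cultures, for the 7 listed complement genes (blue) and 7 phagocyte markers (grey), filled where the adjusted p was under 0.05. C5ar1 at 3.28 and C3ar1 at 2.23 are filled, while the C1q chains, C3 and Cfp are open.

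The 250 bases before the RefSeq start of C3ar1 (GRCm38.p6, chr6:122856158-122856407) are shown because it had the lowest p of the 7 genes. The stretch runs 5′ to 3′ on the minus strand.
C3ar1: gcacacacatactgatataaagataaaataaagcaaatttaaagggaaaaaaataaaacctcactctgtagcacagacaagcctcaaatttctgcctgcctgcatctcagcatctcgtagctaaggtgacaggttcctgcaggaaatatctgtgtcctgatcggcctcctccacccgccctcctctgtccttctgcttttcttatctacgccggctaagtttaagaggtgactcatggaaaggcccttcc
Neither AGGAAG nor a C/EBP-type sequence, TTGCNNAA, was in it on either strand, so it has no capitals, and 9.56% of RefSeq stretches of that length held the latter.

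Of the other complement genes 29 were listed, and none was called by the authors' adjusted p in the authors' deposited table. At an unadjusted p under 0.05 there were 2. Among all 19333 genes only 0.393% were called higher and 0.155% lower, so the lack of calls among the 29 is near that share. Of the 29 genes 11 pointed higher and 18 lower, with a median log2 fold change of -0.06 against 0.00 for all genes. The 2 were Itgb2 (3.30, SE 0.98, adjusted p = 0.114) and Itgax (1.29, SE 0.58, adjusted p = 1) in the authors' deposited table, which encode leukocyte integrin subunits of complement receptors 3 and 4. The value for Itgam, the alpha subunit of complement receptor 3, was 0.12 (SE 0.18, adjusted p = 1) by the authors' deposited table. The most abundant by mean normalized count were Clu at 2414, which binds terminal complexes in fluid, C1qbp at 1969 and Susd4, a complement inhibitor, at 1053, with log2 fold changes of -0.18, 0.22 and -0.04 in the authors' deposited table.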

How the data were processed

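The authors deposited 1 comparison table for the OPC cultures and 1 file for each immune library, on GRCm38 per the submitters' processing notes; no source used here names the aligner or counter. Per the file headers the OPC table holds means of normalized counts over libraries (used as a signal level), log2 fold changes, their SEs, a test score, p-values and adjusted p-values, all made by the authors. Each immune file holds TPM and estimated counts by the authors per the file headers, of which 79.8% to 85.6% are exactly whole (no tolerance, blanks left out, listed zeros included). The 8 further columns of FPKM and normalized counts were not used. Column codes of the macrophage files match no label, so they carry no replicate number.

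Blanks were taken as 0 and estimated counts rounded. Macrophage libraries and the library labelled Th1 were tested against each other in edgeR 4.0.16 (TMM, filterByExpr, Benjamini-Hochberg). The test was also run on simulated data with few changed genes, as many up as down, and a larger spread. Since most genes differed in the real pair, that run cannot check the scaling used here. DESeq2 1.42.0, R 4.3.3, Python 3.11.15 and scipy 1.17.1 were also used. The design had allowed for OPC values per library, and the authors' table replaced that test. All 9 genes are named, and of 47 other complement genes those called and the 5 highest. The genes and lists were chosen with earlier results of these data known. GENCODE M21 matched 99.81% of OPC identifiers and RefSeq GRCm38.p6 99.72% of immune ones. Of the 9 genes 8 had a RefSeq promoter entry, C1qa being the other. Intervals at 95% on reads are exact and cover counting error only, and those on OPC fold changes are 1.96 of the authors' SEs on either side. The signs of the deposited fold changes were turned. Alternatives were other scalings, no low-count filter, another test, a minimum mean of 10, read ratios and leaving out each macrophage library.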

Additional observations from a re-analysis of the deposited data

How the results depend on the processing

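The 2 OPC calls held when p-values were adjusted again over all genes or over those with a mean of at least 10 normalized counts. With read totals alone the 2 higher and 5 lower calls in the library labelled Th1 became 0 and 7. The lower calls became 6 without a low-count filter, 4 with DESeq2 size factors and 3 by the DESeq2 Wald test. C3ar1, not called, turned from -1.44 to 0.077 with DESeq2 size factors and 0.076 by the DESeq2 Wald test. Among single genes, 76 other values kept their side of the threshold, 5 lost it and 3 gained it. Dropping the fold limit, chosen after seeing the data, left 2 and 5 calls, as did leaving out each macrophage library. By CPM, which ignores length, C1qc moved to rank 5, C3 to 3 and C5ar1 to 6. As ratios of reads, C1qb over C1qa was 1.55, C1qc over C1qb 0.541 and C5ar1 over C5ar2 20.5. By GENCODE lengths, chosen after seeing the data, C1qc over C1qb in OPCs was 0.505 in place of 0.946. No paired analysis was possible because the OPC table holds no values per library and the immune columns carry no replicate numbers. For the same reason no OPC library could be left out. The shallow library labelled Th1 limits every value near its floor of 3 reads, which is 0.983 CPM.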
